A study of Mus musculus with 24 samples.

Results

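The genes described here encode the machinery that takes a cell from G2 through mitosis to cytokinesis. With earlier results of these data known, the 48 listed genes were chosen by that role. Of these, 47 had a probe set with a single gene symbol, 116 probe sets in all, of which 96 were bright enough to be tested. All 47 passed the filter on dim signals through their brightest probe set, which stands for the gene below, among 12715 genes represented and tested over both chips. Ccnb1, which encodes cyclin B1, was not analysed here because no probe set carried its symbol in the annotation used.

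The RNA was from P19, a line of mouse embryonal carcinoma cells kept as a clonal culture. P19 cells grow as pluripotent cells in monolayer and can differentiate after aggregation, and the study asked what aggregation does to gene expression in the earliest steps of that process. The 12 RNA samples form 4 groups of 3: monolayer D1, monolayer D2, suspension D1 and suspension D2, where D is not spelled out in the labels and no inducer is named. All groups shared alpha medium with fetal bovine and calf serum and the same column-based RNA preparation. Each RNA was labelled with biotin and hybridised to both chips of an Affymetrix pair, MOE430A and MOE430B, which made 24 arrays. Because it is 1 line, and because the labels do not say whether the replicates of a group are separate cultures, every p-value below measures the spread between these samples, which may be technical.

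Entry into mitosis is driven by CDK1 bound to cyclin A and cyclin B, which CDC25 phosphatases activate and which PLK1 and the Aurora kinases act beside. Condensins and topoisomerase II shape the chromosomes, kinetochores attach them to the spindle, and the spindle checkpoint holds back the anaphase-promoting complex and its activator CDC20 until attachment is complete. Most of these genes are transcribed late in the cell cycle from promoters that carry a cell cycle genes homology region, the CHR, and CCAAT boxes. The DREAM complex holds such promoters silent in resting cells, and B-Myb, with MuvB, and FOXM1 activate them in G2. Pluripotent cells are known for rapid cycling with short gap phases.

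Markers fitted the line: 10 of 12 embryonal carcinoma markers had a mean signal above the median signal of their chip, and Pou5f1, the pluripotency factor OCT4, read between 25310 and 42480 in the 12 samples. Of markers of other cell types, 6 of 13 fibroblast, 4 of 10 neural, 4 of 10 muscle and 0 of 6 blood cell markers lay above it. Arrays of a chip correlated with each other with a median Pearson's r between 0.925 and 0.945 for MOE430A, and between 0.742 and 0.819 for MOE430B. The replicate 3 arrays of every group, which were washed in a later run, had the lowest values on MOE430B, 0.742 to 0.776. The 18S ribosomal control on MOE430A ran from 11310 to 45420 in monolayer D1, 43000 to 68290 in suspension D1, 37140 to 60140 in monolayer D2 and 58000 to 64040 in suspension D2, and its part in the results was not tested.

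Promoter windows show what most of these genes share in sequence. Windows from RefSeq on GRCm38.p6, 250 bases before to 50 after each gene's start, were given for 40 of the 48 genes, 43 windows in all. The CHR core was searched as TTTGAA and the CCAAT box as CCAAT, both on either strand, and a match of each can share only an outer base with a match of the other. The windows below belong to a kinase, the central CDK, a centromere histone, a proliferation marker, a CDK subunit without a CHR core in its window and the cytokinesis gene whose signals ran against the rest. Capitals mark both motifs, in the letters of the opposite strand where a motif lies there.
Plk1, chr7:122159185-122159484, plus strand: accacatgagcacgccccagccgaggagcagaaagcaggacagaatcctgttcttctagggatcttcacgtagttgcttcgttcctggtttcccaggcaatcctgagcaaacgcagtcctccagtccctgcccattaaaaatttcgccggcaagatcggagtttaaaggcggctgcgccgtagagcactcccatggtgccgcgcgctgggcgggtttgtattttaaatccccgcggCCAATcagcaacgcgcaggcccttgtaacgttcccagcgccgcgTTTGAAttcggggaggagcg
Cdk1, chr10:69352863-69353162, minus strand: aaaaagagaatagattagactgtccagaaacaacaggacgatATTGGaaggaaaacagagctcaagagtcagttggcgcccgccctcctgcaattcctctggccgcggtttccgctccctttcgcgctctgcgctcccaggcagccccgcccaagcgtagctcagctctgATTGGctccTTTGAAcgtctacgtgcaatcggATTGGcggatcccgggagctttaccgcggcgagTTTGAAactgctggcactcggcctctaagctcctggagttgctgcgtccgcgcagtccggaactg
Cenpa, chr5:30666636-30666935, plus strand: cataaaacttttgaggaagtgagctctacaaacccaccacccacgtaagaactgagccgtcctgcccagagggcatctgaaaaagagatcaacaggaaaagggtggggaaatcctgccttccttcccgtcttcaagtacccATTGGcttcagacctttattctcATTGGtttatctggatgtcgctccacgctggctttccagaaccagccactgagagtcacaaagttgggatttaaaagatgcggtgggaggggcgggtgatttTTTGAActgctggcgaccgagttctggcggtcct
Mki67, chr7:135716330-135716629, minus strand: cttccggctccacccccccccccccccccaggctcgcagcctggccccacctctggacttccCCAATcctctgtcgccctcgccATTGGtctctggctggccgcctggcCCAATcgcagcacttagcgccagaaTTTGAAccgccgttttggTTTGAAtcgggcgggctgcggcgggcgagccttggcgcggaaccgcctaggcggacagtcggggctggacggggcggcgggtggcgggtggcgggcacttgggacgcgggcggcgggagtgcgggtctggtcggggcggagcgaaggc
Cks2, chr13:51644982-51645281, plus strand: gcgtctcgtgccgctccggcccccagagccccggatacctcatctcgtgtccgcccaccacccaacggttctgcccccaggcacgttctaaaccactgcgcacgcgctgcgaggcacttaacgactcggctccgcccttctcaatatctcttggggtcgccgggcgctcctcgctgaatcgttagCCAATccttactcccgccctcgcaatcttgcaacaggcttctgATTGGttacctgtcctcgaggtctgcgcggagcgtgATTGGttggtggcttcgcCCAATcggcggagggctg
Ect2, chr3:27153805-27154104, minus strand: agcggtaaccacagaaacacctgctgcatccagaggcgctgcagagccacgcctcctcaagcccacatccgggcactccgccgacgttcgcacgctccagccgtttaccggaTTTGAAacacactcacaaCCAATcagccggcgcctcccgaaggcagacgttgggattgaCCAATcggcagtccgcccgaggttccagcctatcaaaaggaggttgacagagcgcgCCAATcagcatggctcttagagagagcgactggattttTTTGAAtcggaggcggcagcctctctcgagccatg
In these windows the CHR core began 31 bases after the start of Plk1, 17 after that of Cenpa, and at -71 and -15 in Cdk1. Mki67 held it at -116 and -98. Cks2 held 4 CCAAT boxes and no CHR core. Ect2 held 2 CHR cores, at -138 and 16, and 3 CCAAT boxes, so its window held the same letters as those of genes whose signals were lower in monolayer D2.

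The CHR core stood in 32 of the 43 windows, 74.4%, against 17.9% of all 32851 windows. CCAAT boxes stood in 34 windows, 79.1%, against 37.4%, and both motifs in 28, 65.1%, against 6.95%. The related letters TTTAAA, which read the same on both strands, cannot overlap TTTGAA and can share an outer base with CCAAT, stood in 9 windows, 20.9%, against 13.2%. A CHR core that began within 50 bases of the start was found in 28 windows, 65.1%, against 4.94% of all windows. A match is a description of letters and not a measured site. Kif20a, Tpx2, Incenp, Foxm1, Smc4, Aurkb, Ccna2 and Cdc25c had no window.

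**Figure D1:**
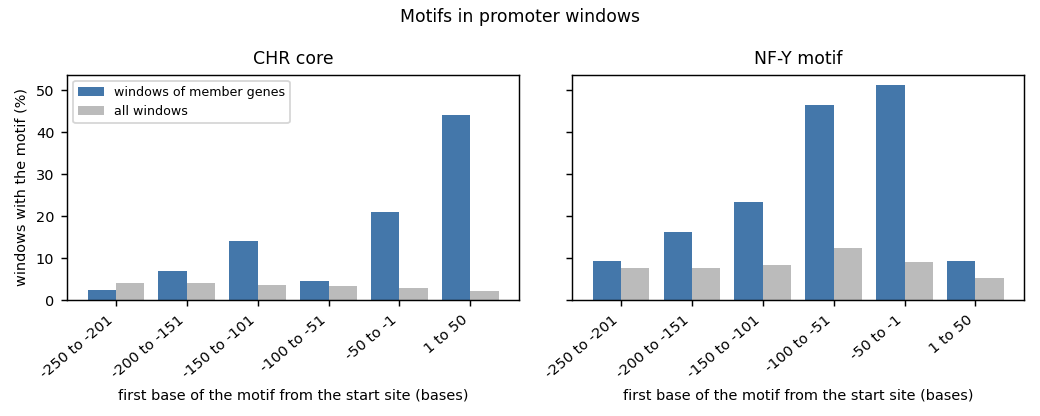
Share of promoter windows, in percent, in which the CHR core (left) or the CCAAT box bound by NF-Y (right) begins in each 50-base step from the start site, for the 43 windows of G2 and mitosis genes (blue) and all 32851 windows (grey). The blue bars for the CHR core reach 44.2% in the first 50 bases after the start, where the grey bar stands at 2.25%.

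Across the 12 samples the lowest values were those of monolayer D2. Each gene's log2 signal was set against its own mean over the 12 samples, and these deviations were averaged over the 47 genes. Monolayer D1 stood at 0.09, 0.00 and 0.10 in replicates 1 to 3, and suspension D1 at 0.14, 0.11 and 0.08. Monolayer D2 stood at -0.18, -0.11 and -0.22, and suspension D2 at 0.08, -0.11 and 0.03. The monolayer D2 samples lay below both D1 groups without overlap, and replicate 2 of suspension D2 shared the value of the highest monolayer D2 sample. In bulk RNA, fewer cells in G2 and mitosis and less of these RNAs per cell cannot be told apart.

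**Figure D2:**
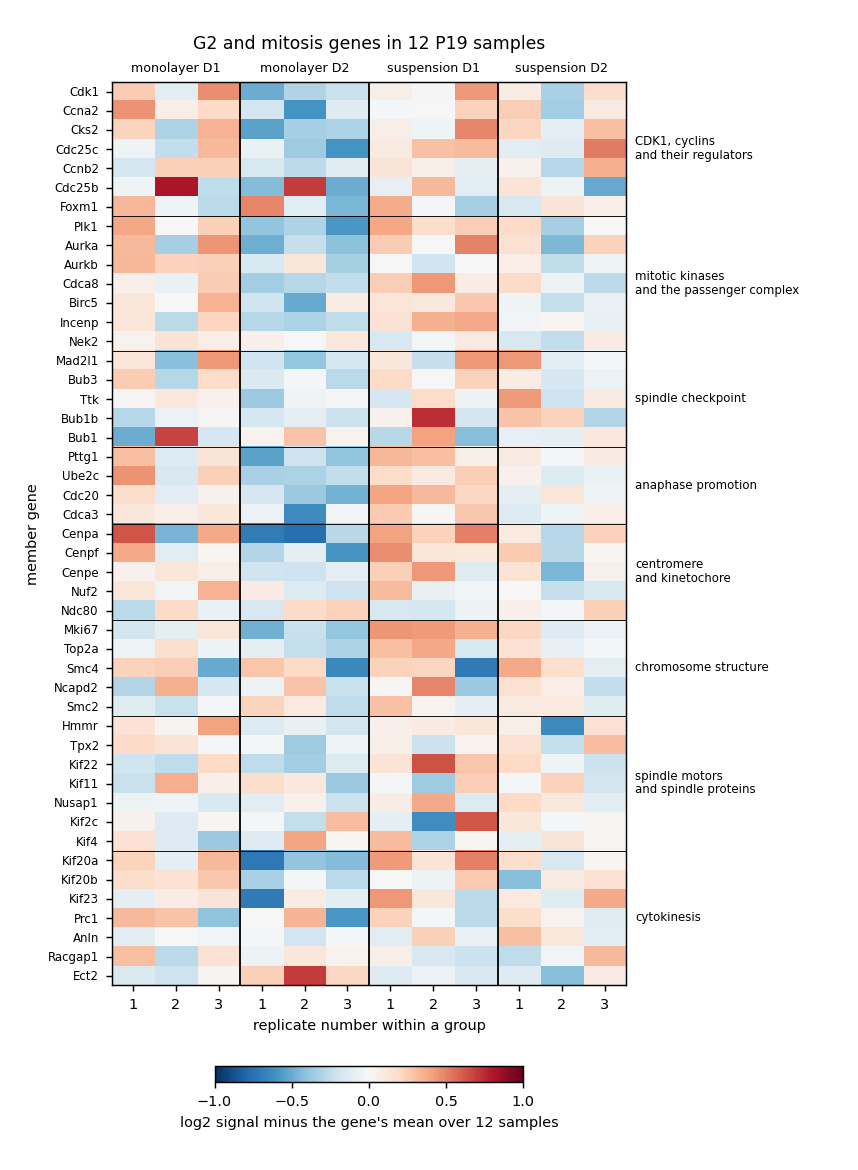
Log2 signal of each of the 47 genes minus its own mean over the 12 samples, from -1 (blue) to 1 (red), with genes as rows grouped by role and samples as columns grouped by culture and stage. The monolayer D2 columns are mostly blue in the rows of CDK1 and the cyclins, the mitotic kinases and anaphase promotion, whereas Ect2 at the bottom is red there.

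Of the 4 pairwise comparisons, D2 against D1 in monolayer had the median farthest from 0. Of the 47 genes, 40 read lower at D2 and 7 higher, with a median log2 difference of -0.24 against 0.00 over all tested genes. None passed limma at an adjusted p under 0.05, where 0.00754% of the tested probe sets did. At an unadjusted p under 0.05 there were 14 lower and 1 higher, together 31.9% of the 47, where 8.91% of all tested genes stood. All 3 D2 samples lay below all 3 D1 samples for 17 of the 47, against 6.78% of all tested genes, and above them for 1, against 6.61%. Within the washing batches the median was -0.11 in the arrays of fluidics station 1 of the earlier run, -0.29 in those of station 2 and -0.32 in the later run.

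Markers of cell state were read beside this comparison. The summed signal of the embryonal carcinoma markers ran from 135100 to 152400 in monolayer D1 and from 133300 to 147800 in monolayer D2. Within that list Nanog, a pluripotency factor, had a mean of 7934 in monolayer D1 and 4197 in monolayer D2, at -0.90 ± 0.18 (SE, limma adjusted p = 0.178), and Pou5f1 stood at 0.32 ± 0.16, each without overlap. The fibroblast sums ran from 15260 to 18580 and from 16100 to 17820, the neural sums from 8335 to 12060 and from 9359 to 11470, and the muscle sums from 5500 to 6747 and from 5819 to 7201. The blood cell markers, all below the chip medians, summed to between 2640 and 3168 at D1 and between 1737 and 2400 at D2. Their part in the results was not tested.

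Plk1, the kinase that drives mitotic entry and spindle assembly, had the lowest adjusted p together with Kif20a. It read 7686, 5840 and 6930 in monolayer D1 and 4461, 4742 and 3907 in monolayer D2, with every D2 sample below every D1 sample. The log2 difference was -0.63 ± 0.16 (SE, n = 3 per group, limma adjusted p = 0.301), which is -35.4% on that scale, where the chip's offset had been added to each signal. All 7 genes of the kinase and passenger group were below 0 in this comparison, with a median of -0.37 and 3 without overlap.

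Aurka, the Aurora kinase of centrosomes and spindle poles, read 7189, 4549 and 7797 in monolayer D1 and 4090, 4891 and 4305 in monolayer D2. Replicate 2 of monolayer D1 lay inside the D2 range, so the groups overlapped, and the difference was -0.52 ± 0.22. Aurkb, the Aurora kinase of the chromosomal passenger complex, read 4258, 3963 and 3978 against 3031, 3656 and 2676, and its groups did not overlap at -0.39 ± 0.15. Its partners Cdca8 (borealin), Birc5 (survivin) and Incenp differed by -0.37, -0.36 and -0.31. Nek2, a kinase of centrosome separation, differed by only -0.03, and its other probe sets by 0.15 and 0.11.

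Among CDK1, the cyclins and their regulators, all 7 measured genes were below 0, with a median of -0.35. Cdk1 read 15280, 11890 and 17630 in monolayer D1 and 9062, 10360 and 10970 in monolayer D2, without overlap. Its difference was -0.54 ± 0.19 (SE, limma adjusted p = 0.458). Ccna2, which encodes cyclin A2, read 11980, 9171 and 10060 against 7742, 5802 and 8033, also without overlap, at -0.54 ± 0.18, and its second tested probe set gave -0.43 ± 0.15.

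Cks2, a small subunit that CDK1 binds, read 13790, 9528 and 15080 against 8161, 9403 and 9519. These groups did not overlap, though their closest samples read 9528 and 9519, and the difference was -0.48 ± 0.19. The phosphatases that activate CDK1, Cdc25c and Cdc25b, differed by -0.35 ± 0.23 and -0.24 ± 0.32, and Ccnb2, cyclin B2, by -0.28 ± 0.17. Foxm1, the transcription factor of this program, stood at -0.03 ± 0.24, and its other probe sets gave -0.20 and 0.45.

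All 4 genes grouped as anaphase promotion, a name that fits Pttg1 and Cdca3 only loosely, were lower in monolayer D2 without overlap, at a median of -0.42. Pttg1, securin, which blocks the protease that cleaves cohesin, read 34140, 25260 and 30260 in monolayer D1 and 19180, 24050 and 21050 in monolayer D2, a difference of -0.47 ± 0.15 (SE, limma adjusted p = 0.412). Ube2c, the ubiquitin-conjugating enzyme of the anaphase-promoting complex, read 17970, 11810 and 15530 against 10550, 10570 and 11150, at -0.47 ± 0.15. Cdc20, the activator that the checkpoint restrains, read 15920, 13070 and 14510 against 12570, 10920 and 10140, at -0.37 ± 0.14.

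These 3 genes and Cdca3, a substrate adaptor that triggers mitotic entry, at -0.33 ± 0.16, made up the only role group in which every gene separated the stages in monolayer. A second bright probe set of Cdc20 gave -0.29 ± 0.13 and a dim one 0.12 ± 0.45.

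**Figure D3:**
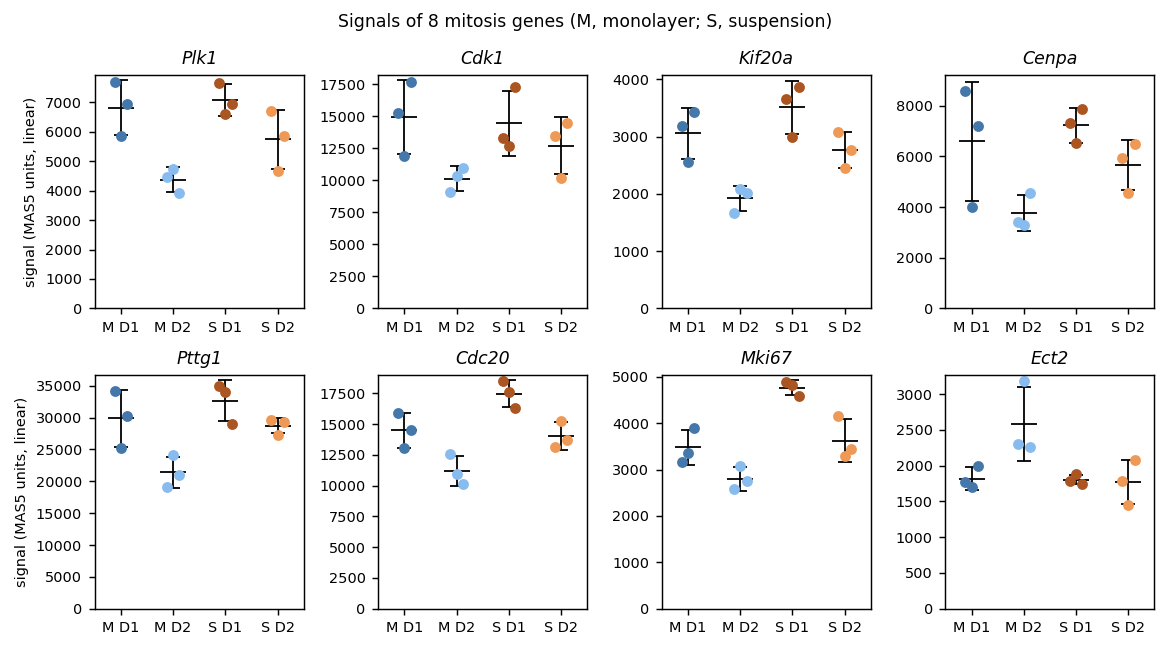
Signals in linear MAS5 units, from 0, of 8 genes in each sample (points), with the mean and SD of the 3 samples of each group (black), for monolayer (M) and suspension (S) at D1 and D2. Plk1, Cdk1, Kif20a, Pttg1, Cdc20 and Mki67 have every monolayer D2 point below every monolayer D1 point, Cenpa has 1 monolayer D1 point at 4007 inside the D2 range, and Ect2 runs the other way.

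Kinetochore genes were mixed. Cenpa, the histone H3 variant that marks centromeres, read 8576, 4007 and 7206 in monolayer D1 and 3417, 3276 and 4569 in monolayer D2. Replicate 2 of monolayer D1 lay between the D2 samples. The difference of -0.75 ± 0.24 was the largest of the 47 in size (limma adjusted p = 0.413). Without that replicate it was -1.07 with a limma adjusted p of 0.0295, the 1 passing value of any named gene under the alternatives tried. In that fit 225 of the 26516 tested probe sets passed, against 2 with all samples. The 2 other tested probe sets of Cenpa gave -0.07 ± 0.64 and 0.25 ± 0.49.

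Cenpf, a large protein of the outer kinetochore, differed by -0.42 ± 0.19, with overlap. The dimmer probe sets of Cenpf gave -0.31 ± 0.26 and 0.48 ± 0.32. Cenpe, the kinetochore motor, differed by -0.24 ± 0.19 without overlap, and Nuf2 and Ndc80, subunits of the same microtubule-binding complex, by -0.23 ± 0.17 and 0.13 ± 0.19.

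In the spindle checkpoint 4 of 5 genes were below 0, at a median of -0.19, and none stood at an unadjusted p under 0.05. Mad2l1, which binds and restrains CDC20, differed by -0.30 ± 0.22, and Ttk, the kinase that starts the signal, by -0.19 ± 0.18 without overlap. Bub3 differed by -0.19 ± 0.16, its second probe set on the same chip by -0.61 ± 0.20 and a dim one by 0.58 ± 0.47. Bub1b, a component of the inhibitor itself, stood at -0.05 ± 0.23 and the kinase Bub1 at 0.11 ± 0.26, with monolayer D1 signals that ran from 3980 to 8948.

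Chromosome structure genes centred near 0, at a median of -0.05. Mki67, the Ki-67 antigen that coats mitotic chromosomes, read 3167, 3365 and 3903 in monolayer D1 and 2572, 3075 and 2748 in monolayer D2, without overlap, at -0.31 ± 0.15. Top2a, topoisomerase II alpha, was also lower without overlap, at -0.23 ± 0.16. The condensin subunits Smc4, Ncapd2 and Smc2 gave -0.05, 0.04 and 0.14, each with overlapping groups.

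Spindle motors and spindle proteins had a median of -0.09. Hmmr, a spindle-associated protein, differed by -0.32 ± 0.19, Tpx2, which activates Aurora A on microtubules, by -0.24 ± 0.19, and the chromokinesin Kif22 by -0.16 ± 0.17. Kif11, the motor that separates spindle poles, and Nusap1 stood at -0.09 and -0.01. Kif2c, a microtubule depolymerase, stood at 0.04 and Kif4, a chromokinesin, at 0.21 ± 0.20. Of these 7 genes, Hmmr was lower without overlap and the other 6 overlapped.

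Cytokinesis genes were spread widely, at a median of -0.15. Kif20a, a motor of the central spindle, read 3188, 2562 and 3424 in monolayer D1 and 1662, 2080 and 2018 in monolayer D2, far apart, at -0.65 ± 0.17 (SE, limma adjusted p = 0.301). Ect2, the exchange factor that activates RhoA for the contractile ring, read 1771, 1699 and 1994 against 2306, 3184 and 2262. Every D2 sample lay above every D1 sample, at 0.48 ± 0.18 (SE, limma adjusted p = 0.506), and Ect2 was the 1 gene of the 47 with this order.

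Kif20b, another motor of late mitosis, was lower without overlap at -0.40 ± 0.19. Kif23 and Racgap1, which form the centralspindlin complex that recruits ECT2, stood at -0.27 ± 0.22 and -0.03 ± 0.18. A dimmer tested probe set of Racgap1 gave -0.59 ± 0.19. The midzone bundler Prc1 stood at -0.15 ± 0.24 and the anillin gene Anln at -0.03 ± 0.15.

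In suspension the same comparison gave smaller values. Of the 47 genes, 33 read lower at D2 and 14 higher, with a median of -0.13 against 0.03 over all tested genes. None passed limma, where 0% of probe sets did. At an unadjusted p under 0.05 stood 3 genes, all lower, 6.38% of the 47 against 5.87% of all tested genes. There were 6 genes lower without overlap, against 5.84% of all tested genes, and 1 higher, against 6.27%. Within the washing batches the median was -0.02 in station 1, -0.25 in station 2 and -0.09 in the later run, and without replicate 2 of suspension D2 it was -0.06. The fibroblast marker sums were apart, 14540 to 14950 in suspension D1 and 16080 to 18160 in suspension D2. Vim made up most of these sums, with means of 9116 and 10300. The embryonal carcinoma sums ran from 130400 to 154200 and from 139400 to 145200. Of the 10 tested markers of that list, 1 was higher at D2 without overlap and 0 lower. The neural sums ran from 8497 to 10050 and from 8925 to 10860. The muscle sums ran from 4717 to 6468 and from 6245 to 7179, and the blood cell sums from 2183 to 2622 and from 2425 to 2688. The part of these markers was not tested. The beta-actin ratio on MOE430B was lower in suspension D2, 1.04 to 1.12, than in suspension D1, 1.25 to 1.33 (exact permutation p = 0.1), and its part was not tested. Median centring of the arrays moved the median to -0.20 and the count of lower genes to 44, where the median of all genes itself moved to -0.06.

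Mki67 had the largest difference here. It read 4883, 4827 and 4582 in suspension D1 and 4149, 3283 and 3449 in suspension D2, with the groups apart, at -0.40 ± 0.15 (SE, limma adjusted p = 0.841). Cdc20 read 18500, 17610 and 16290 against 13150, 15290 and 13690, also apart, at -0.31 ± 0.14. Incenp, Ube2c, Birc5 and Cenpa were the other 4 genes lower without overlap, at -0.32, -0.23, -0.28 and -0.36, and Ndc80 was the 1 higher, at 0.21 ± 0.19. The tested probe sets of Cenpa ran from -0.36 to 0.37, of Incenp from -0.32 to 0.07 and of Cdc20 from -0.31 to -0.10.

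Mki67, Cdc20 and Ube2c were lower at D2 without overlap in both cultures. Plk1 and Kif20a, at -0.31 ± 0.16 and -0.34 ± 0.17 in suspension, overlapped there. Kif22 stood at -0.37 ± 0.17. The genes near 0 in suspension included Ccna2 at -0.07, Cks2 at -0.03 and Aurkb at -0.01, all of which were lower without overlap in monolayer. The condensin gene Smc4 stood at 0.24 ± 0.29, and its tested probe sets ran from -0.14 to 0.24.

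The monolayer and suspension differences share no samples. Over the 47 genes they correlated with a Pearson's r of 0.59 and a Spearman's rho of 0.61, against 0.20 and 0.23 over all tested genes. There were 30 genes below 0 in both cultures and 4 above 0 in both. These are descriptions across genes, which share the arrays and are not independent. For 35 of the 47 the monolayer value was the lower one, against 52.4% of all tested genes.

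**Figure D4:**
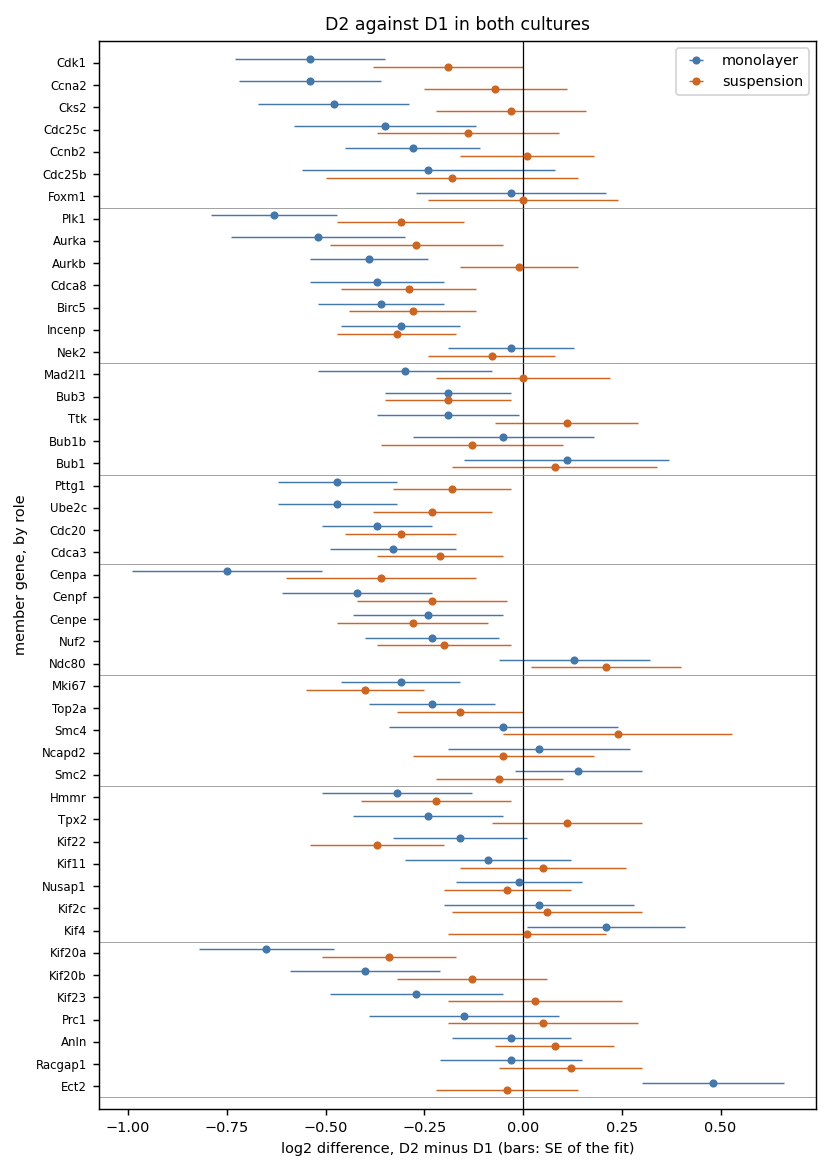
Log2 difference D2 minus D1 of each of the 47 genes in monolayer (blue) and suspension (orange), with SE of the limma fit, by role. Plk1, Kif20a and Cenpa lie farthest to the left in monolayer, at -0.63, -0.65 and -0.75, and Ect2 farthest to the right at 0.48, where its suspension value is -0.04.

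The interaction, the suspension difference between stages minus the monolayer one, was above 0 for 35 of the 47 genes with a median of 0.11 against 0.02 over all genes, but median centring turned the median to -0.05 and left 21 above 0, where the median of all genes was itself -0.10. No gene passed limma, where 0% of probe sets did, and 0 of the 47 stood at an unadjusted p under 0.05, where 3.42% of all tested genes did. The largest values were those of Ccna2 at 0.46 ± 0.26, Cks2 at 0.45 ± 0.27 and Cenpa at 0.39 ± 0.34, and the lowest that of Ect2 at -0.52 ± 0.25 (limma adjusted p = 1 for each). The 2 cultures were therefore not shown to differ in their stage effect for any of these genes. For the interaction the tested probe sets of Cenpa ran from -0.56 to 0.44, of Ccna2 from 0.25 to 0.46 and of Cks2 from 0.25 to 0.45. Within the washing batches the median was 0.07, 0.07 and 0.27, and without the later run it was 0.04.

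At D2 the suspension samples read higher than monolayer for 37 of the 47 genes and lower for 10, with a median of 0.20 against 0.00 over all genes. None passed limma, where 0.0528% of probe sets did. At an unadjusted p under 0.05 there were 7 higher and 1 lower, 17% of the 47 against 7.13% of all tested genes. For 9 genes all suspension samples lay above all monolayer samples, against 7% of all tested genes, and for 1 below, against 7.23%. Within the washing batches the median was 0.30 in station 1, 0.06 in station 2 and 0.21 in the later run. Without replicate 1 of suspension D2 the median was 0.12. The blood cell marker sums were apart, 2425 to 2688 in suspension D2 and 1737 to 2400 in monolayer D2, and the sums of the other 4 marker lists, given above, overlapped. Of the 10 tested embryonal carcinoma markers, 3 were higher and 3 lower in suspension without overlap. Among these Nanog stood at 0.54 ± 0.18 and Lin28a at -0.37 ± 0.14. The part of these markers was not tested. This comparison shares the monolayer D2 samples with the stage comparison in monolayer, so the values of both are given side by side and not as 2 separate results.

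Cks2 read 13730, 11050 and 14580 in suspension D2, above 8161, 9403 and 9519 in monolayer D2, at 0.53 ± 0.19 (SE, limma adjusted p = 0.586). Kif20a read 3086, 2447 and 2765 against 1662, 2080 and 2018, at 0.52 ± 0.17. Pttg1 read 29560, 27320 and 29300 against 19180, 24050 and 21050, at 0.43 ± 0.15.

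In all 3 the groups were apart, as they were for Cdc20 at 0.33, Mki67 at 0.36, Mad2l1 at 0.35, Incenp at 0.26, Ube2c at 0.24 and Top2a at 0.23. The tested probe sets of Top2a ran from -0.53 to 0.23, of Cdc20 from -0.07 to 0.33 and of Incenp from -0.07 to 0.26. Those of Cks2, from 0.53 to 0.61, and of Pttg1, from 0.43 to 0.99, were all higher in suspension. Cenpa had the largest difference, 0.59 ± 0.24, with overlap between 4556 in suspension and 4569 in monolayer, and its tested probe sets ran from -0.02 to 0.90. Plk1 stood at 0.38 ± 0.16, also with overlap, because replicate 2 of suspension D2 read 4670. Ect2 was the 1 gene lower without overlap, with 1791, 1453 and 2073 against 2306, 3184 and 2262, at -0.53 ± 0.18 (SE, limma adjusted p = 0.520). Nek2 and Bub1 followed at -0.16 and -0.14.

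For the cultures at D1 the 47 genes split into 27 higher and 20 lower in suspension, with a median of 0.06 against -0.03 over all genes. None passed limma, where 0.0528% of probe sets did, and 2 were higher and 1 lower at an unadjusted p under 0.05, 6.38% against 5.06% of all tested genes. Without overlap 2 were higher, against 3.78% of all genes, and 1 lower, against 5.71%. By a cut on correlations given below, replicate numbers were taken to pair the samples in this comparison. Same-numbered samples also shared a washing batch, so a pairing and a batch cannot be told apart. With the replicate block 30 probe sets passed in place of 14, and still 0 of the 47 genes. The ratio of the beta-actin 3' to 5' control signals, a measure of RNA integrity and labelling, ran from 1.25 to 1.33 in suspension D1 and from 0.968 to 1.13 in monolayer D1 on MOE430B, without overlap (exact permutation test, two-sided, p = 0.1, the smallest that 3 against 3 allows). On MOE430A it ran from 1.20 to 1.33 and from 0.998 to 1.21, and its part in the results was not tested. Marker sums were apart for the fibroblast list, 14540 to 14950 in suspension and 15260 to 18580 in monolayer. The means of Vim, the brightest of that list, ran the other way, at 9116 in suspension and 8878 in monolayer. Sums were also apart for the blood cell list, 2183 to 2622 and 2640 to 3168, and those of the other 3 lists overlapped. Within the embryonal carcinoma list Utf1 stood at -0.73 ± 0.16 (SE, limma adjusted p = 0.323) and Lin28a at -0.35 ± 0.14, each lower in suspension without overlap. Of the 10 tested markers of that list, 6 were above 0, up to 0.44, and 0 were higher without overlap. The part of these markers was not tested. Within the washing batches the member median was 0.13, 0.02 and 0.00. Median centring gave 0.13 with 37 genes above 0, where the median of all genes moved to 0.02.

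Mki67 was the gene with the largest difference at D1, with 4883, 4827 and 4582 in suspension against 3167, 3365 and 3903 in monolayer. The groups were apart, at 0.45 ± 0.15 (SE, limma adjusted p = 0.799). Mki67 was thus higher without overlap in suspension at both stages, and Cdc20, at 0.27 ± 0.14, was the other gene of which this held. Kif22, with a suspension sample at 10590, stood at 0.43 ± 0.17, and Bub1b at 0.31 ± 0.23. Aurkb was lower without overlap, with 3373, 2949 and 3389 against 4258, 3963 and 3978, at -0.33 ± 0.15. The second tested probe set of Aurkb gave 0.04. Ccna2 and Racgap1 stood at -0.17 and -0.16.

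The culture differences at D1 and D2 share no samples. Over the 47 genes they correlated with a Pearson's r of 0.44 and a Spearman's rho of 0.50, against 0.20 and 0.18 over all tested genes, and 24 genes were above 0 at both stages and 7 below.

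The genes followed one another to different degrees. Plk1 was most like the rest, with a Pearson's r of 0.97 between its log2 signal and the mean of the other 46 genes over the 12 samples, and 0.92 once group means were removed. Kif20a and Pttg1 followed with 0.91, Cenpf with 0.89 and Mki67 with 0.84. The median over the 47 was 0.53, and 26 genes exceeded 0.5, where 10.7% of all tested genes did. With group means removed the median over the 47 was 0.24, with Kif20a at 0.57, Pttg1 at 0.64, Cenpf at 0.82, Mki67 at 0.65 and Cdc20, from 0.76, at -0.04. At the other end stood Ect2 at -0.49, Ndc80 at -0.47 and Bub1 at -0.34. After removal of group means Ect2 stood at 0.72, so within groups it varied with the others. These correlations describe genes that share arrays and RNA samples.

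Genes with and without the CHR core differed little in the stage comparison in monolayer, with medians of -0.23 over 29 genes and -0.24 over 10. At D2 the medians of suspension against monolayer were 0.22 and 0.08 for the same genes. Split by TTTAAA, the stage medians in monolayer were -0.39 over 8 genes with it and -0.23 over 31 without. By CCAAT they were -0.24 over 30 and -0.23 over 9. In suspension the stage medians with and without were -0.13 and -0.13 for the CHR core, -0.28 and -0.08 for TTTAAA, and -0.17 and -0.04 for CCAAT. None of these splits was tested.

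Further lists of the cell cycle put these values beside other genes, with no test of the lists against each other. Of 61 further mitosis genes tested, 37 read lower in monolayer D2 than in monolayer D1, with a median of -0.07, and 8 were lower and 5 higher without overlap, against 6.78% and 6.61% of all tested genes. Spc25, a partner of NDC80, stood at -0.67 ± 0.20, the condensin gene Ncapg at -0.55 ± 0.18 and the centromere gene Cenpl at -0.96 ± 0.35. The highest value of the list was 0.81, and 5 of its genes were lower and 2 higher at an unadjusted limma p under 0.05. At D2 the same list had a median of -0.05 for suspension against monolayer, with 24 of 61 genes above 0.

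S phase genes were lower at D2 in both cultures by count: 34 of 46 in monolayer and 35 of 46 in suspension, each with a median of -0.12. Dut, which removes dUTP, stood at -0.97 ± 0.18 in monolayer (limma adjusted p = 0.154) and -0.54 ± 0.18 in suspension. Tk1, thymidine kinase, stood at -0.93 ± 0.24 and -0.55 ± 0.24, and Ccne1, cyclin E1, at -1.20 ± 0.35 and -0.97 ± 0.35. At D2 the S phase genes had a median of -0.04 for suspension against monolayer, with 18 of 46 above 0, beside 37 of 47 for the G2 and mitosis genes.

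Regulators of the program were less uniform. The MuvB, B-Myb, Rb and E2F genes had a median of -0.03 over 17 genes in monolayer. Mybl2, which encodes B-Myb, stood at -0.53 ± 0.18 in monolayer and -0.48 ± 0.18 in suspension, and E2f7, a repressing E2F, at -0.69 ± 0.22 and -0.71 ± 0.22, both lower without overlap in both cultures. E2f3 stood at -0.53 ± 0.25 in monolayer. Subunits of the anaphase-promoting complex had a median of -0.07 over 14 genes, with Cdc16 at 0.54 ± 0.17, Anapc11 at -0.38 ± 0.16 and Anapc2 at 0.30 ± 0.15. Cohesin genes had a median of 0.15 over 10, with the loader gene Mau2 at 0.55 ± 0.23, Rad21 at 0.23 ± 0.21 and Stag2 at 0.21 ± 0.18.

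G1 cyclins and CDK inhibitors had a median of -0.22 over 12 genes, with Ccnd1, cyclin D1, at -0.70 ± 0.28, Cdkn1b, the inhibitor p27, at 0.74 ± 0.35 and Mycn at -0.31 ± 0.18. No gene of these 6 lists passed limma at an adjusted p under 0.05 in any of the 5 comparisons. In the stage comparison in monolayer, where 8.91% of all tested genes stood at an unadjusted p under 0.05, the counts were 7 of 61 further mitosis genes (11.5%), 8 of 46 S phase genes (17.4%), 3 of 17 regulators (17.6%), 2 of 14 subunits (14.3%), 1 of 10 cohesin genes (10%) and 1 of 12 G1 genes (8.33%).

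**Figure D5:**
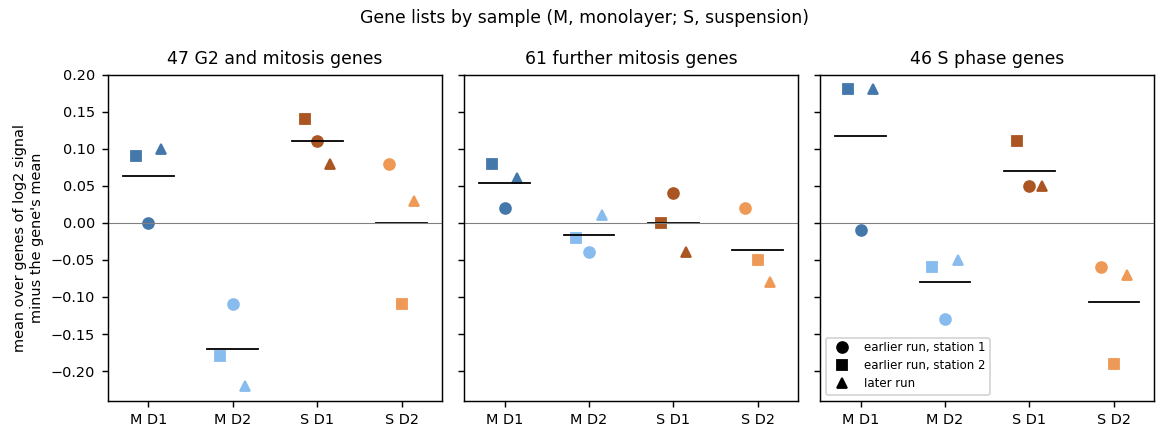
Mean over genes of the log2 signal minus each gene's mean over the 12 samples, for the 47 G2 and mitosis genes, 61 further mitosis genes and 46 S phase genes, by group, with 1 point per sample shaped by washing batch and a line at the group mean. The monolayer D2 points of the first panel lie between -0.22 and -0.11, and the S phase points of both D2 groups lie at or below -0.05.

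Different probe sets of a gene did not always run together. Over the 96 tested probe sets of the 47 genes, 77 were below 0 in monolayer D2 against D1, with a median of -0.22, and 74 were above 0 in suspension against monolayer at D2, with a median of 0.20. Of 29 genes with more than 1 tested probe set, 10 had differences of both signs in the stage comparison in monolayer: Bub3, Cdc20, Cenpa, Cenpf, Foxm1, Hmmr, Incenp, Kif2c, Nek2 and Smc2. For Incenp the other probe sets gave -0.31 and 0.18, for Hmmr between -0.39 and 0.02, for Kif2c -0.30 and -0.05, and for Smc2 between -0.04 and 0.42.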

How the data were processed

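The deposited values were signal intensities on a linear scale, 1 per probe set and array, made by the authors with MAS5 per the submitters' processing notes, with no version given and no detection calls used here. The deposited scaling was kept. Each signal was raised by the 10th percentile of its chip, 51.01 on MOE430A and 108.1 on MOE430B, and put on a log2 scale, so folds of dim genes are understated. Probe sets above the chip's median signal, 599.8 or 846.4, on at least 3 of 12 arrays were tested, 26516 in all. All 12 samples entered 1 fit per chip with limma 3.58.1 in R 4.3.3, with 1 mean per group and a variance trend, two-sided, with Benjamini-Hochberg adjustment over both chips. Precision is limited by the number of arrays. The members, lists and alternatives were chosen with earlier results of these data known. Named genes are the brightest of each role, 9 measured central genes, the 3 highest and 3 lowest of each comparison, and those whose probe sets disagree, and every other member has a value too. Correlations of the deviations of same-numbered samples were all above 0.1 only for the cultures at D1, 0.11, 0.21 and 0.17. By that cut only those numbers were taken to pair samples. For the stages in monolayer the correlations were 0.07, 0.13 and 0.16. Same-numbered samples shared a washing batch in both of these comparisons. The scripts were tested on simulated data.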

Additional observations from a re-analysis of the deposited data

How the results depend on the processing

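With 25 alternatives (24 for the interaction), of which 12 left out 1 sample each, the count of members passing limma was 0 in all 5 comparisons, apart from the 1 of Cenpa without replicate 2 of monolayer D1, so that leaving out single samples gave 0 to 1 for D2 against D1 in monolayer. Leaving out single samples moved the member median between -0.29 and -0.22 there, between -0.17 and -0.06 for the stages in suspension, between 0.02 and 0.09 for the cultures at D1, between 0.12 and 0.23 for the cultures at D2 and between 0.09 and 0.15 for the interaction. Median centring gave member medians of 0.13 for the cultures at D1, -0.20 for the stages in suspension and -0.05 for the interaction. The medians of all genes were then 0.02, -0.06 and -0.10. The other alternatives kept the sign of the member medians. With the replicate block, no member passed, and 30, 89 and 193 probe sets passed for the cultures at D1, the cultures at D2 and the stages in monolayer, against 14, 14 and 2 without it. In the last 2 of these not every correlation of same-numbered samples exceeded 0.1. Same-numbered monolayer samples of D1 and D2 nevertheless shared a washing batch, so the number is a batch block for the stages in monolayer. It is a batch block for the cultures at D1 too. Without replicate 2 of monolayer D1, 225 probe sets passed for the stages in monolayer. Single named genes changed sign in 25 of 825 values for the stages in monolayer, 51 for the stages in suspension, 52 and 35 for the cultures at D1 and D2, and in 79 of 792 for the interaction. The causes were not tested.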
